A study of Bos taurus with 147 samples.

Results

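The block of chromosome 23 around ALDH5A1 was followed through 5 of the 10986 measured transcripts, and through the transcripts of other chromosomes that varied with them. The members were taken by transcript cluster, namely ALDH5A1 (12806154), HIST1H2AC (12805079), PGBD1 (12806498), TMEM14C (12806610) and ZFP57 (12803975). The study had listed each of them for associations with SNPs in these same cows, so wide variation and mutual correlation are in part a matter of selection and not independent evidence. Each of 145 F2 cows, bred from Charolais and German Holstein founders, gave adrenal cortex RNA for 1 Affymetrix Bovine Gene array. All cows were females of 1 experimental herd, kept under the same housing and feeding, and were slaughtered about a month after calving in the second lactation, at 1127 to 1774 days of age. Slaughter in summer accounted for 45 cows, autumn for 38, spring for 36 and winter for 26, over 8 years ending in 2011 and 25 classes of year and season. They belonged to half-sib and full-sib families of Charolais founder sires, and pedigree and genotypes were not analysed here.

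The region holds the class I and class II genes of the bovine major histocompatibility complex (MHC), which present peptides to T cells, and, beside them, a large cluster of histone genes. Long stretches of this region are known to be inherited together, so alleles of neighbouring genes tend to travel as a block in a cross. The members have little in common in function. ALDH5A1 encodes the mitochondrial succinate semialdehyde dehydrogenase, which takes the last step of GABA breakdown. HIST1H2AC, now named H2AC6, encodes a histone H2A of the nucleosome core. PGBD1 is derived from a piggyBac transposase and carries a SCAN domain. TMEM14C is a protein of the inner mitochondrial membrane that red blood cell precursors of mouse and zebrafish need for heme synthesis. ZFP57 is a zinc finger protein that, in mouse and human, binds methylated imprinting control regions and keeps their methylation.

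The values were log2 signals, so a difference of 1 is a doubling of signal. The deposited values ran from 1.31 to 14.495, array medians from 7.89 to 8.08, and correlations between any pair of arrays from 0.895 to 0.991. The number of arrays limits the precision. Markers of the steroid-producing cortex were strongly present, with mean signals of 13.14 ± 0.09 (SD, n = 145) for CYP11A1 and 13.13 ± 0.11 for CYP17A1. The mean over 7 measured markers of the adrenal medulla, which was dissected away, varied between cows from 6.95 to 11.6. In bulk tissue, fewer cells of a type and less RNA per cell cannot be told apart.

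On assembly UMD3.1, as the study annotated the array, 4 of the members lie close together and TMEM14C lies apart. ZFP57 spans chromosome 23 from 28735237 to 28740327 on the plus strand, and PGBD1, HIST1H2AC, ALDH5A1 and TMEM14C lie on the minus strand. PGBD1 follows from 30153493 to 30156796, HIST1H2AC from 31579041 to 31589224 and ALDH5A1 from 32950888 to 32976657. The gaps between these neighbours were 1.41, 1.42 and 1.36 Mb. TMEM14C, from 45265656 to 45272354, is a further 12.3 Mb away from ALDH5A1. Each interval is the whole transcript cluster, exons and introns together.

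The spread between cows was wide for HIST1H2AC and narrower for the other members. HIST1H2AC had a lowest signal of 4.98, a median of 7.00 and a highest of 8.48, an 11.3-fold range. After removal of the year-season class and the age at slaughter in limma, its residual SD was 0.82, above 98.5% of the transcripts in the same decile of mean signals. ALDH5A1 ran from 7.91 through a median of 8.71 to 9.40 (2.81-fold), with a residual SD of 0.36 at the percentile 84.2 of its decile. That is to say, the histone gene stood near the top of transcripts of similar signal, and ALDH5A1 lower. ZFP57 ran from 5.24 through 6.66 to 7.40 (4.45-fold, residual SD 0.36, percentile 74.1). PGBD1 ran from 4.14 through 5.03 to 5.74 (3.03-fold, residual SD 0.33, percentile 58.8). Its mean of 5.01 was the lowest of the members and under the mean signal of 6 that an alternative fit required. TMEM14C had the narrowest range of the members, from 11.62 through 12.35 to 12.79 (2.25-fold, residual SD 0.28, percentile 83.8).

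The residuals of ALDH5A1 and of TMEM14C were each described by 2 normal components, and those of the other members by 1. ALDH5A1 had 51 cows in the low and 94 in the high component, 2.73 component SDs apart, and TMEM14C had 60 and 85 cows, 2.66 SDs apart. The components met without a break. The highest residual of the low component and the lowest of the high one were -0.13 and -0.12 for ALDH5A1, and -0.056 and -0.046 for TMEM14C. The components describe signals, and no genotype was read.

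No member differed between seasons beyond the spread of cows. ALDH5A1 had lowest, median and highest signals of 7.91, 8.61 and 9.18 in spring, 7.94, 8.65 and 9.21 in summer, 7.95, 8.84 and 9.40 in autumn, and 7.93, 8.77 and 9.24 in winter. Its means fell in the order autumn, winter, summer, spring, and HIST1H2AC had the same order. HIST1H2AC ran over 5.13, 6.69 and 8.39 in spring, 4.98, 6.92 and 8.48 in summer, 5.51, 7.02 and 8.47 in autumn, and 5.53, 7.21 and 8.06 in winter. PGBD1 ran over 4.27, 5.06 and 5.74 in spring, 4.14, 5.01 and 5.73 in summer, 4.37, 4.89 and 5.52 in autumn, and 4.62, 5.10 and 5.69 in winter. The seasons overlapped over most of their range for each of these genes. TMEM14C ran over 11.81, 12.35 and 12.79 in spring, 11.67, 12.38 and 12.74 in summer, 11.62, 12.29 and 12.79 in autumn, and 11.77, 12.21 and 12.75 in winter. ZFP57 ran over 5.37, 6.64 and 7.23 in spring, 5.24, 6.62 and 7.40 in summer, 5.74, 6.85 and 7.29 in autumn, and 5.70, 6.68 and 7.06 in winter. The order of means was winter, spring, summer, autumn for PGBD1, summer, spring, autumn, winter for TMEM14C, and autumn, spring, summer, winter for ZFP57. In each order, neighbouring seasons differed by less than the smaller of their SDs. This describes the spread of single cows and does not test the means.

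**Figure D1:**
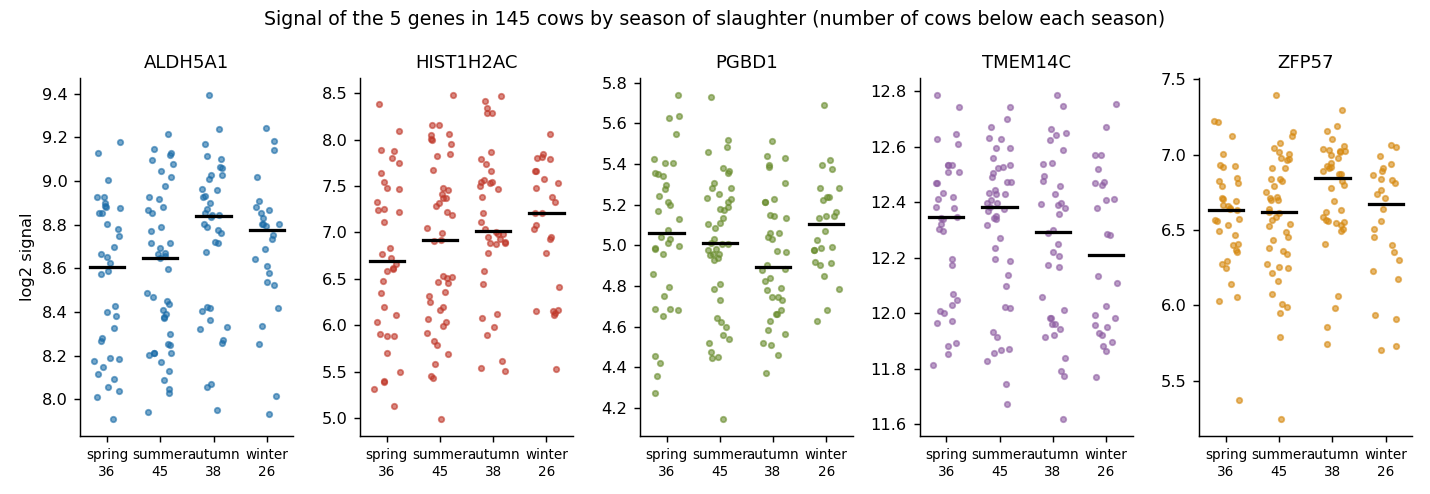
Log2 signal of the 5 genes (vertical axes) in each of 145 cows by season of slaughter, with 1 point per cow and a black bar at the median of a season. The 4 seasons overlap over most of their range in every panel, and HIST1H2AC spreads most widely, from 4.98 to 8.48.

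The tests of season, age and class gave no call for a member. Between summer and winter, with year, age and the class as a random block in limma, the differences ran from -0.18 ± 0.19 (SE) for HIST1H2AC to 0.10 ± 0.066 for TMEM14C (summer minus winter). Adjusted p-values were 0.466 to 0.956 for this contrast, 0.535 to 0.694 for any season and 0.604 to 0.984 for age. Over all 10986 transcripts limma also called 0 for summer against winter (0%), for any season (0%) and for age (0%), with 1477, 1020 and 930 transcripts at an unadjusted p under 0.05. The 25 classes of year and season differed for 11.6% of all transcripts, and for 0 of the 5 members (limma, adjusted p from 0.0799 for ZFP57 to 0.861 for PGBD1). Before adjustment, ZFP57 differed between classes (p = 0.0108 in limma) and ALDH5A1 between seasons (p = 0.0381). For ZFP57 the F-test over classes passed with the first principal component of all residuals in the fit (adjusted p = 0.0251). Its F did not rise there, at 1.92 against 1.93 without the component. That fit called 5743 of all transcripts for the classes, against 1273, so the pass is no separate evidence for ZFP57. The F-test of ZFP57 passed as well, with a larger F, without the array of summer replicate 17 (adjusted p = 0.0305). That array had the lowest median correlation with the other arrays, 0.95, against 0.951 for the next.

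Over the years of slaughter, signals of HIST1H2AC and TMEM14C rose and those of ZFP57 fell. A linear slope on year was a common feature of these arrays, called by limma for 44.9% of all transcripts, with 25.7% rising and 19.2% falling. Against that background 3 of 5 members are no result about the members, and arrays and tissue of different years cannot be told apart from the years. ZFP57 had a mean of 6.74 ± 0.33 (SD, n = 7 cows) in the first year, 6.68 ± 0.36 (n = 39) in 2008 and 6.36 ± 0.50 (n = 15) in 2011. Its slope was -0.058 ± 0.016 per year (SE, limma, adjusted p = 0.00220), and it passed under all 13 alternatives. The class block had a correlation of -0.0154 and did not widen the errors. Without the block the SE was 0.017, and 4721 transcripts were called for year instead of 4937. Cows of a year thus counted in effect as independent, so the p-values of the year slopes may be too small. HIST1H2AC had means of 6.48 ± 0.84 (n = 11) in the second year, 6.75 ± 0.88 (n = 39) in 2008 and 7.29 ± 0.70 (n = 15) in 2011. Its slope of 0.10 ± 0.035 (limma, adjusted p = 0.0110) was lost without 2010 (adjusted p = 0.0575) or without 2011 (adjusted p = 0.126).

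TMEM14C had yearly means from 12.18 ± 0.32 (n = 7) in the first year to 12.38 ± 0.17 (n = 15) in 2011. Its slope of 0.033 ± 0.012 (limma, adjusted p = 0.0215) was lost without 2010 (adjusted p = 0.0895), without 2011 (0.0542) and with the first principal component (0.0599). PGBD1 had a slope of -0.027 ± 0.014 (adjusted p = 0.0981) and ALDH5A1 of 0.016 ± 0.015 (adjusted p = 0.402). When the years were ordered by mean signal, neighbours in that order differed by less than the smaller of their SDs for each member, which does not test the means.

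**Figure D2:**
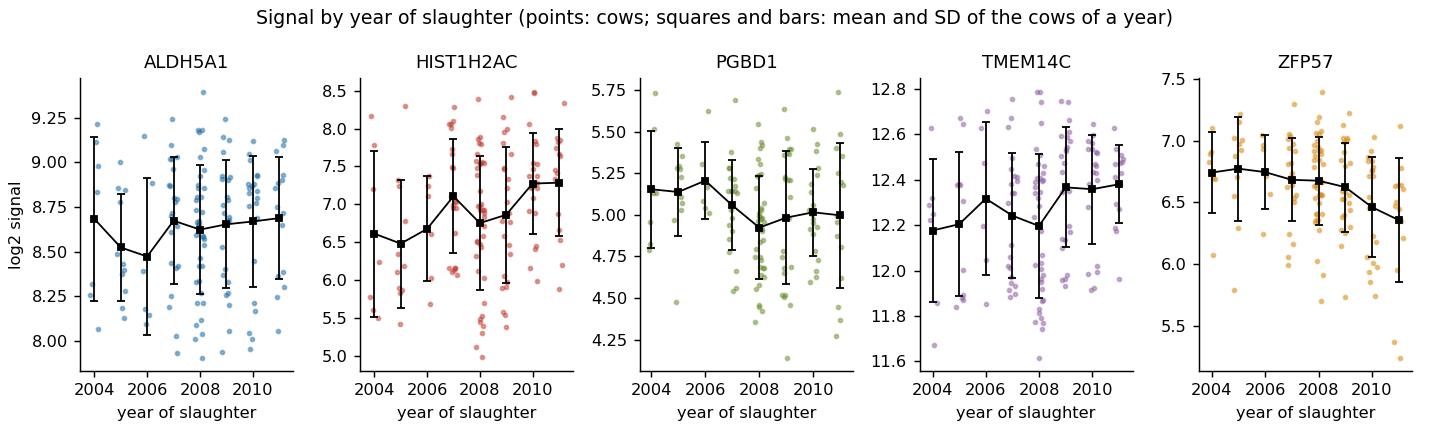
Log2 signal of the 5 genes (vertical axes) by year of slaughter, with 1 point per cow and squares and bars at the mean and SD of the cows of a year. The yearly means of ZFP57 go from 6.74 in the first year to 6.36 in 2011, and those of HIST1H2AC from 6.62 to 7.29, with cows of all years overlapping.

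Among cows of the same class, ALDH5A1, HIST1H2AC and PGBD1 were high in the same cows, while TMEM14C was low where ALDH5A1 and HIST1H2AC were high, and ZFP57 was low where HIST1H2AC and PGBD1 were high. Of the 10 pairs of members, 8 were correlated after adjustment over the pairs (permutation tests of the residuals, 100000 permutations, two-sided). Cows were permuted as if independent although relatives share alleles, so these p-values may be too small. ALDH5A1 and HIST1H2AC had the strongest correlation (r = 0.547, permutation p = 1e-05, the smallest possible, adjusted p = 3.33e-05, rho = 0.553, p = 1e-05). They lay on the same side of their medians in 99 of 145 cows, and r was 0.564 when the 2 cows with the most extreme ALDH5A1 were left out. For each pair, the 2 farthest cows were those most extreme in the gene that comes first in the order ALDH5A1, HIST1H2AC, PGBD1, TMEM14C, ZFP57. ALDH5A1 and PGBD1 had r = 0.434 (permutation p = 1e-05, adjusted p = 3.33e-05, rho = 0.410, p = 1e-05), on the same side in 89 cows, and r = 0.417 without the 2 farthest cows. HIST1H2AC and PGBD1 had r = 0.338 (permutation p = 5e-05, adjusted p = 0.000125, rho = 0.354, p = 3e-05), and 0.365 without the 2 farthest cows. These 3 genes thus formed a positive set over the stretch between 30153493 and 32976657.

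TMEM14C, on the far side of the longest gap, ran against ALDH5A1 and HIST1H2AC, while its correlation with PGBD1 did not pass. It had r = -0.382 with ALDH5A1 (permutation p = 1e-05, adjusted p = 3.33e-05, rho = -0.364, p = 2e-05), on the same side of the medians in 49 of 145 cows, and -0.389 without the 2 farthest cows. With HIST1H2AC it had r = -0.292 (permutation p = 0.00045, adjusted p = 0.000643, rho = -0.278, p = 0.0007), and -0.247 without the 2 farthest cows. With PGBD1 r was -0.123 (permutation p = 0.139, adjusted p = 0.155, rho = -0.142, p = 0.0875), and -0.109 without the 2 farthest cows.

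ZFP57, at the other end, was opposed to HIST1H2AC (r = -0.322, permutation p = 8e-05, adjusted p = 0.00016, rho = -0.323, p = 9e-05) and to PGBD1 (r = -0.317, permutation p = 0.00011, adjusted p = 0.000183, rho = -0.323, p = 0.0001). Without the 2 cows farthest in HIST1H2AC or in PGBD1, r was -0.339 and -0.349. Cows were not left out by their ZFP57 values in this check. The correlation of ZFP57 with ALDH5A1 was weak (r = -0.184, permutation p = 0.0272, adjusted p = 0.0339, rho = -0.197, p = 0.0180, and -0.202 without the 2 farthest cows). It was lost with the values as deposited (r = -0.153) and without the array of summer replicate 17 (r = -0.167). TMEM14C and ZFP57, the members farthest apart on the chromosome, had r = 0.0418 (permutation p = 0.619, adjusted p = 0.619, rho = 0.0603, p = 0.472), and 0.0744 without the 2 farthest cows.

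**Figure D3:**
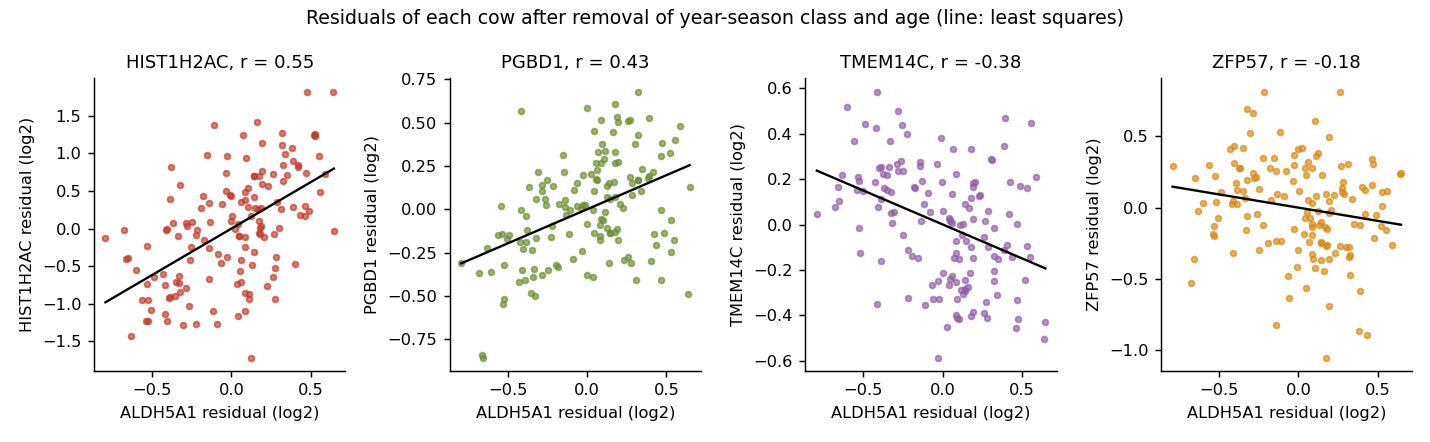
Residuals of HIST1H2AC, PGBD1, TMEM14C and ZFP57 (vertical axes, log2) against those of ALDH5A1 (horizontal axes, log2), 1 point per cow, with a least-squares line. The cloud rises for HIST1H2AC (r = 0.547) and PGBD1 (r = 0.434), and falls for TMEM14C (r = -0.382) and, weakly, for ZFP57 (r = -0.184).

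Within the components the correlations were taken over ranges that the split itself narrows. With HIST1H2AC, r was 0.417 among the 94 cows of the high component (permutation p = 3e-05, adjusted p = 0.00048 over 16 such correlations) and 0.338 among the 51 of the low one (p = 0.0151, adjusted p = 0.0806). By rank the low component passed (rho = 0.387, permutation p = 0.00517, adjusted p = 0.0276). With PGBD1, r was 0.501 in the low component (permutation p = 0.00022, adjusted p = 0.00176) and 0.0287 in the high one (p = 0.783, adjusted p = 0.894). Whether the components differ was not tested. With TMEM14C none of the correlations within components passed. They were -0.0865 and 0.0481 in the low and high components of ALDH5A1, and -0.0820 and -0.136 in those of TMEM14C (permutation tests, adjusted p from 0.690 to 0.892). HIST1H2AC and TMEM14C gave 0.0537 and -0.00279 in the low and high components of TMEM14C (adjusted p = 0.892 and 0.980).

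In the order of the 243 measured chromosome 23 genes that RefSeq places, no gene within 5 places of a member passed with it, except around HIST1H2AC. The slope of every other transcript on a member was tested in limma with class and age, the size being given as a partial correlation r. Of the 10 genes within 5 steps of ALDH5A1, 0 passed in limma after adjustment over all 10985 other transcripts. Around PGBD1, TMEM14C and ZFP57 it was likewise 0 of 10. Of all transcripts, 0.0910%, 0.0546%, 2.54% and 0.118% were called with ALDH5A1, PGBD1, TMEM14C and ZFP57. At such shares, 0 of 10 does not set the neighbours apart from other transcripts. At an unadjusted p under 0.05 there were 2 around ALDH5A1, 3 around PGBD1, 2 around TMEM14C and 2 around ZFP57, beside 7.21%, 13.9%, 20.6% and 8.74% of all transcripts. PGBD1 and ZFP57 stand 5 places apart in this order, and so count among each other's 10. Beside ALDH5A1, TDP2, a repair enzyme that frees DNA ends from topoisomerase, had r = -0.278 (adjusted p = 0.228) and ACOT13, a mitochondrial thioesterase, had -0.105. On its other side MRS2, a mitochondrial magnesium channel, had -0.0245 and NRSN1 had 0.126. The immediate neighbours thus gave weaker correlations than HIST1H2AC, 12 places away. The median absolute r with ALDH5A1 was 0.133 within 5 steps, 0.165 at 6 to 20 steps, where 14 of 30 genes had an unadjusted p under 0.05 and 2 passed, 0.101 at 21 to 60 steps and 0.0765 beyond, beside 0.0658 over all other transcripts. Around PGBD1 it went from 0.148 within 5 steps to 0.0994 beyond 60 (0.0937 over all), around ZFP57 from 0.0945 to 0.0642 (0.0679 over all), and around TMEM14C from 0.100 to 0.116 (0.105 over all).

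The 2 nearest genes on either side of the remaining members gave a similar picture, HIST1H2AC apart. Beside PGBD1, the SCAN zinc finger gene ZSCAN31 had r = 0.329 (adjusted p = 0.115), TRIM27 had -0.0350, and the olfactory receptor gene OR2B2D and the linker histone gene H1-5 had -0.132 and -0.0801. Beside TMEM14C, PAK1IP1, a factor of ribosome assembly, had 0.181 (adjusted p = 0.238), and NEDD9, SMIM13 and C23H6orf52 lay between -0.0800 and 0.0120. Beside ZFP57, the RNA polymerase I subunit gene POLR1H had -0.230 (adjusted p = 0.347), and PPP1R11 and 2 olfactory receptor genes, OR10C1 and OR12D2H, lay between -0.124 and -0.0248.

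Around HIST1H2AC, 10 of 10 genes within 5 steps passed, 9 of them with a positive r, beside 34.6% of all transcripts called with HIST1H2AC. H2BC5, a histone H2B gene, had r = 0.580 (limma, adjusted p = 2.45e-09), H2BC4, another, had 0.433, and H1-4, a linker histone gene, had 0.418. HFE, which regulates iron uptake through hepcidin, had r = -0.302 (adjusted p = 0.00725). The median absolute r over those 10 genes was 0.437, over genes 6 to 20 steps away 0.227, and over genes more than 60 steps away 0.172. For comparison the median absolute r over all other transcripts was 0.165. Histone genes of this cluster are near-identical copies, and how far the probes of 1 gene bind RNA of another was not tested.

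**Figure D4:**
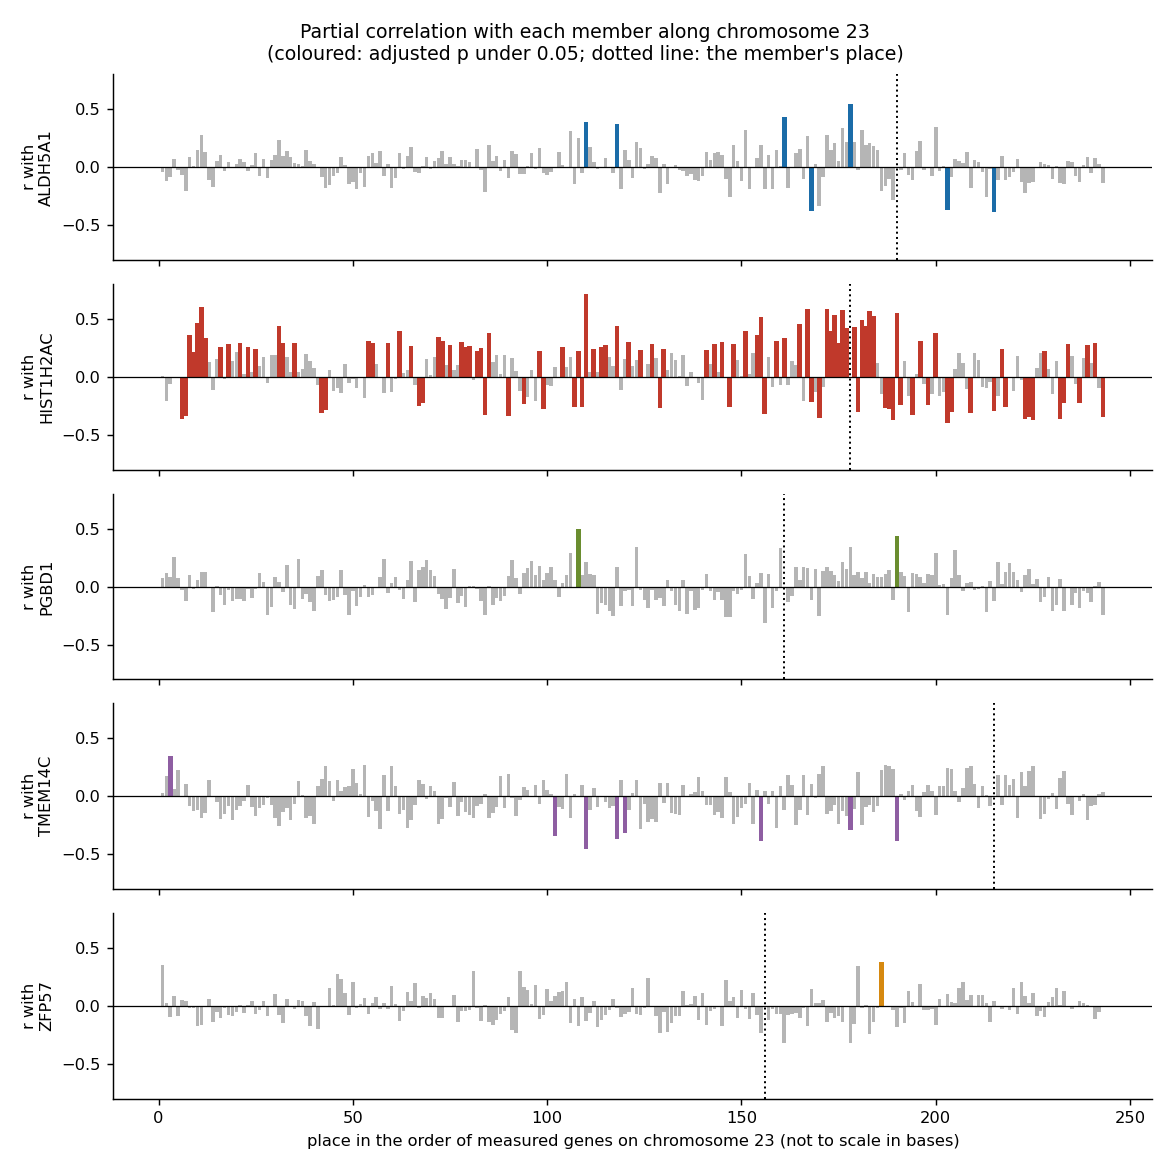
Partial correlation (vertical axes) of each of 243 chromosome 23 genes with each member, in gene order (horizontal axis, not to scale in bases), coloured where the adjusted p is under 0.05, with a dotted line at the member. Coloured bars crowd around HIST1H2AC, and for ALDH5A1, PGBD1, TMEM14C and ZFP57 none stands within 5 places of the member. At most 2.54% of all transcripts were called with any of these last members.

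Most transcripts that followed ALDH5A1 were of chromosome 23. Of 10985 transcripts, 6 followed it with a positive slope (0.0546%) and 4 with a negative one (0.0364%). They included 8 of 262 on chromosome 23 (3.05%) and 1 of 8608 assigned elsewhere (0.0116%), the remaining 1 having no place. Of the 8, 3 are members, which were chosen on this chromosome, and without the members it was 5 of 258 (1.94%). The strongest was unnamed cluster 12911035 (r = 0.659, limma, adjusted p = 1.17e-12), whose signal ran from 6.05 through a median of 7.43 to 9.76. It has no gene symbol and no place in the annotation, and was chosen after its values were seen. It was the 1 transcript still called when the 4 other members were terms of the fit (r = 0.458, adjusted p = 0.00178).

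The named transcripts that followed ALDH5A1 included 2 MHC transcripts. BOLA-DQB1, the beta chain of a class II molecule, had r = 0.393 (slope 1.14 ± 0.24, SE, adjusted p = 0.0142). A class I heavy chain, BOLA cluster 12805748, which was named after its values were seen because the symbol has another cluster with a higher mean, had r = 0.397 (adjusted p = 0.0140). C4A, a complement component encoded between the MHC classes, had 0.376 (adjusted p = 0.0275). In the negative direction stood the histone H2B gene H2BC11 (r = -0.377, adjusted p = 0.0249) and ATXN1, a nuclear protein known from a polyglutamine ataxia (r = -0.369, adjusted p = 0.0405). The 1 gene of another chromosome was SLITRK2, a membrane protein of synapses encoded on chromosome X (r = -0.390, adjusted p = 0.0149). Beside them, members HIST1H2AC (adjusted p = 2.82e-07), PGBD1 (0.00220) and TMEM14C (0.0232) passed in this fit, and ZFP57 did not (0.659). With the other members in the fit, C4A, ATXN1, SLITRK2 and both MHC transcripts had adjusted p = 1.00 and r between -0.133 and 0.117, while H2BC11 had r = -0.323 (adjusted p = 0.540).

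HIST1H2AC was followed by transcripts of chromosome X and of each of the numbered chromosomes. Of 10985 transcripts, 1984 had a positive slope (18.1%) and 1820 a negative one (16.6%), with 43.1% of those on chromosome 23 called, 42.2% without the members, and 36.7% of those on other chromosomes. HIST1H2AC correlated with the first principal component of the residuals of all transcripts, which holds 28.9% of their variance (r = 0.286), whereas the other members had r between -0.151 and 0.0794. With that component in the fit, 1318 transcripts were called, and 787 of them were among the 3804. Shares were then 25.6% on chromosome 23 and 12.5% elsewhere. Without its 2 most extreme cows, 2504 transcripts were called.

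The largest correlation of HIST1H2AC was with BOLA-DQB1 (r = 0.717, slope 0.92 ± 0.081, adjusted p = 9.25e-17), and it was 0.698 with the principal component in the fit. Core histone genes came next on the chromosome, H2B with 0.605 and H2BC12 with 0.588, and LOC521580, a long noncoding RNA gene by RefSeq, had 0.587. Unnamed cluster 12803480, chosen after its values were seen, had 0.630, and its signal ran from 3.88 through 5.93 to 8.83. In the negative direction on chromosome 23, ATXN1 had r = -0.393, and SSR1, a subunit of the translocon-associated complex, had -0.372. TDP2 had -0.368 and the splicing kinase gene PRPF4B had -0.367. SSR1 was lost with the principal component in the fit (adjusted p = 0.0616).

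On other chromosomes, LOC525863 on chromosome 15 (r = 0.622, adjusted p = 6.65e-11) and LOC614881 on chromosome 17 (r = 0.599) led the positive side, with no role given by the annotation. PINK1, a kinase that marks damaged mitochondria for removal, on chromosome 2, had r = 0.589 (slope 0.20 ± 0.025, adjusted p = 1.20e-09). A transcript with the symbol of the microRNA gene MIR15A had 0.572. The negative side was led by a transcript with the symbol of the microRNA gene MIR29C on chromosome 16 (r = -0.529, adjusted p = 1.02e-07) and by OPTN, an autophagy receptor, on chromosome 13 (r = -0.526). SLITRK2 had r = -0.504 and WSB1, a substrate receptor of ubiquitin ligases on chromosome 19, had -0.493. These 8 passed in each of the 7 other settings run.

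PGBD1 was followed by few transcripts, 5 with a positive slope (0.0455%) and 1 with a negative one (0.0091%). FBXO9, a substrate receptor of an SCF ubiquitin ligase encoded on chromosome 23, had r = 0.497 (slope 0.28 ± 0.046, adjusted p = 4.32e-05). The 1 negative was BOLA cluster 12802789, a class I heavy chain (r = -0.497, slope -3.11 ± 0.49, adjusted p = 2.43e-05). Its signal ran from 3.88 through a median of 11.19 to 12.06. Both passed in all 7 other settings. Unnamed cluster 12911035 had r = 0.50 (adjusted p = 2.43e-05). On other chromosomes, NAT1, an arylamine N-acetyltransferase on chromosome 27, had r = 0.394 (adjusted p = 0.0178) and GPAM, a mitochondrial acyltransferase of glycerolipid synthesis on chromosome 26, had 0.383 (adjusted p = 0.0247). Each of these passed in 4 other settings, of 6 run for NAT1 and 7 for GPAM. NAT1, with a mean signal of 5.56, was not in the setting that required at least 6. In the fit over all transcripts PGBD1 did not call HIST1H2AC (adjusted p = 0.107) or ZFP57 (0.132), which passed in the tests over the 10 pairs. With the 4 other members in the fit, 809 transcripts passed instead of 6.

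TMEM14C was followed by 137 transcripts with a positive slope (1.25%) and 142 with a negative one (1.29%), with 3.05% called on chromosome 23, 2.33% there without the members, and 2.83% on other chromosomes. HMGN1, a nucleosome-binding protein, had r = 0.514 (slope 0.87 ± 0.13, adjusted p = 8.53e-06), and PSMG1, a chaperone of proteasome assembly, had 0.456 (adjusted p = 0.000230). Both lie on chromosome 1, with BRWD1 between them in the RefSeq order of protein-coding genes. MGST2, a microsomal glutathione transferase on chromosome 17, had 0.458 (adjusted p = 0.000174), and the pseudogene LOC781337 on chromosome 11 had 0.442. The negative side was led by CRABP1, a cellular binding protein of retinoic acid on chromosome 21 (r = -0.510, slope -1.23 ± 0.19, adjusted p = 8.53e-06), and by CORO2B, an actin-binding coronin on chromosome 10 (r = -0.488). PINK1 had r = -0.470 (adjusted p = 0.000113) and PFKP, a phosphofructokinase of glycolysis on chromosome 13, had -0.437. These 8 passed in all 7 other settings.

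On chromosome 23, BOLA-DQB1 had r = -0.455 with TMEM14C (slope -1.68 ± 0.30, adjusted p = 0.000174), POLR1H -0.387 (adjusted p = 0.00419) and C4A -0.370 (adjusted p = 0.00735). BAG2, a cochaperone of HSP70, had 0.345 (adjusted p = 0.0150). ALDH5A1 (adjusted p = 0.00448) and HIST1H2AC (adjusted p = 0.0443) passed as well, the latter in 3 of 6 other settings and not with the first principal component (adjusted p = 0.0841). The number of transcripts that followed TMEM14C was sensitive to few cows and to the other members. It was 139 instead of 279 without its 2 most extreme cows, 181 on ranks and 57 with the 4 other members in the fit, of which 55 were among the 279.

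ZFP57 was followed by 11 transcripts with a positive slope (0.1%) and 2 with a negative one (0.0182%). BOLA cluster 12802789 had r = 0.528 (slope 2.97 ± 0.43, adjusted p = 3.27e-06). The same cluster had -0.497 with PGBD1, and with ALDH5A1 (-0.270), HIST1H2AC (-0.186) and TMEM14C (0.286) it did not pass (adjusted p = 0.251, 0.0902 and 0.0502). With TMEM14C it passed in 4 of 7 other settings, among them that with the first principal component (adjusted p = 0.0492). The 2 negative transcripts were unnamed, cluster 12801474 of chromosome 23 (r = -0.475, adjusted p = 0.000148) and cluster 12911035 (r = -0.436, adjusted p = 0.00122), both chosen after their values were seen. Of the named genes elsewhere, CPB1, a carboxypeptidase on chromosome 1, had r = 0.45 (slope 0.59 ± 0.11, adjusted p = 0.000641) and passed in all 7 other settings. ETS1, a transcription factor on chromosome 29, had 0.391 (adjusted p = 0.0214), FIGN, a microtubule-severing protein on chromosome 2, 0.387 (adjusted p = 0.0214), and CSTF1, a cleavage factor of mRNA ends on chromosome 13, 0.386 (adjusted p = 0.0256). TRIM38, a ubiquitin ligase encoded on chromosome 23, had 0.381 (adjusted p = 0.0240).

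The list of ZFP57 depended on few arrays. Without the array of summer replicate 17, in which ZFP57 had the signal 5.79, 4 transcripts were called instead of 13, and all 4 were among the 13. Without the 2 farthest cows and on ranks it was 6 each, with 5 shared. FIGN, CSTF1 and TRIM38 passed in 4 of 7 other settings, ETS1 in 6. KDR, the endothelial receptor of vascular growth factor, passed with ZFP57 (r = 0.375, adjusted p = 0.0273), and in 4 of 7 other settings. It is 1 of 5 measured endothelial markers, whose mean had r = 0.313 with ZFP57 and ran from 9.00 to 10.03 between cows. Their part in the result was not tested.

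The transcripts that recurred had opposite signs with different members. Each fit used the same cows and the members are correlated, so the values are set side by side and not counted as separate support. PINK1 had r = 0.342 with ALDH5A1 (adjusted p = 0.0685), 0.589 with HIST1H2AC, 0.105 with PGBD1 (adjusted p = 0.582), -0.470 with TMEM14C and -0.0968 with ZFP57 (adjusted p = 0.858). Its signal had a mean of 8.68 ± 0.27 (SD). Cluster 12911035 had 0.659, 0.574, 0.50, -0.242 and -0.436 in the same order, and did not pass with TMEM14C (adjusted p = 0.104). BOLA-DQB1 had 0.393, 0.717, 0.214, -0.455 and -0.134, and did not pass with PGBD1 (adjusted p = 0.274) or ZFP57 (adjusted p = 0.735).

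**Figure D5:**
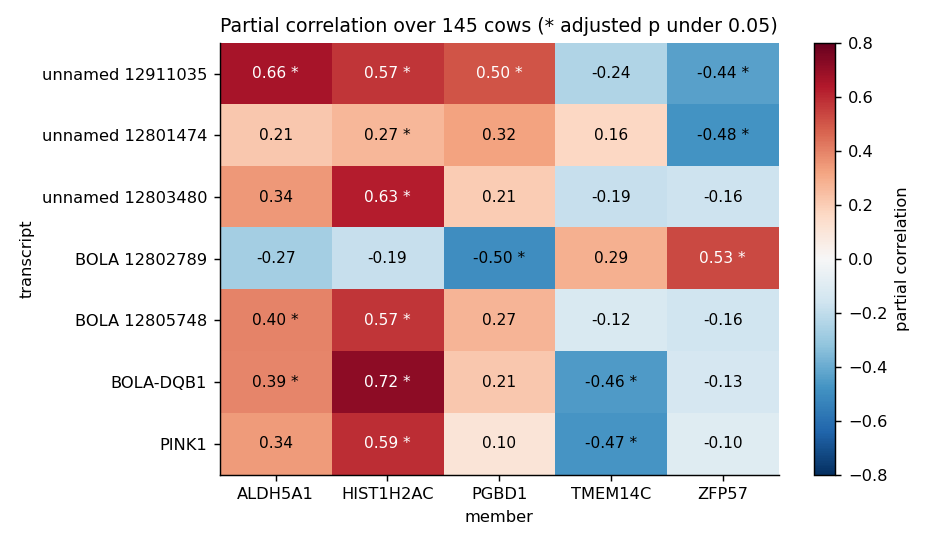
Partial correlation over 145 cows (colour and printed value) of 7 transcripts (rows) with the 5 members (columns), with a star where the adjusted p is under 0.05. Cluster 12911035 and BOLA-DQB1 are positive with ALDH5A1, HIST1H2AC and PGBD1 and negative with TMEM14C and ZFP57, while BOLA cluster 12802789 has the opposite pattern.

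Genes listed for a shared pathway were compared with each member. None of the 21 measured genes of GABA and succinate semialdehyde metabolism, of 45 listed, passed with ALDH5A1 in limma (1 at an unadjusted p under 0.05, beside 7.21% of all transcripts), and their median r was -0.00885 beside 0.00702 over all transcripts. ADHFE1, which handles gamma-hydroxybutyrate, had r = -0.242 (adjusted p = 0.364), and ALDH9A1, an enzyme of GABA synthesis, had 0.166 (adjusted p = 0.753). The glutamate dehydrogenase gene GLUD1 had -0.152 and DLST, of the citrate cycle, had 0.152. Of the 8 measured other aldehyde dehydrogenases, of 16 listed, 0 passed, and 0 had an unadjusted p under 0.05 (r from -0.129 to 0.153).

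Of 25 measured histone and histone mRNA processing genes, of 35 listed, 12 passed with HIST1H2AC in the positive direction and 4 in the negative. Of all transcripts, 18.1% and 16.6% did so. The median r was 0.205, beside 0.0221 over all transcripts. The list left out other measured histone genes, among them H2B, H2BC4 and H2BC11, so these counts do not cover every histone gene. The largest on the list were H2BC12, H2BC5, H2AC20 and H1-12. H2AC20, a histone H2A gene of chromosome 3, had r = 0.572 (adjusted p = 3.13e-09). H1-12, a linker histone gene, had r = 0.533 (adjusted p = 9.19e-08). H2B, which was not on the list, had a larger r of 0.605. The 4 negative ones, CPSF3 (r = -0.297), ZNF473 (-0.291), FIP1L1 (-0.285) and CPSF2 (-0.270), encode factors of mRNA end processing and no histone. Among the positive ones, LSM10 (r = 0.296), SNRPB (0.259) and HINFP (0.256) encode no histone either. Listed genes other than histones thus went both ways. All of these were named after their values were seen. With the first principal component in the fit 9 passed, all positive, beside 12.0% of all transcripts called in that fit in either direction. There LSM10, SNRPB, HINFP, CPSF3, ZNF473, FIP1L1 and CPSF2 had adjusted p from 0.129 to 0.877. Of 11 measured genes of S phase and DNA replication, 2 passed positively and 4 negatively, beside the same 18.1% and 16.6%. MCM7, of the replicative helicase, had 0.402 and CHAF1B, a histone chaperone, 0.309, while MCM4, of the same helicase as MCM7, had -0.384 and the clamp gene PCNA -0.313. With the first principal component MCM7 and MCM4 passed and CHAF1B (adjusted p = 0.0946) and PCNA (adjusted p = 0.0825) did not. In that fit 2 of the 11 were called, beside the same 12.0% of all transcripts.

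Of 24 measured genes of heme synthesis and transport, of 34 listed, 0 passed with TMEM14C in the positive direction and 3 in the negative, beside 1.25% and 1.29% of all transcripts. FLVCR2, a membrane transporter first described for heme, had r = -0.359 (adjusted p = 0.00881). SLC25A38, a mitochondrial glycine carrier, had -0.320 (adjusted p = 0.0262) and ABCB8, a mitochondrial transporter, had -0.307 (adjusted p = 0.0336). SLC25A38 passed in 4 and ABCB8 in 3 of 7 other settings. PPOX, which oxidises protoporphyrinogen, had -0.241 (adjusted p = 0.108).

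None of 8 measured genes of imprint maintenance and none of 22 measured imprinted genes passed with ZFP57 in limma, with 0 and 3 at an unadjusted p under 0.05, beside 8.74% of all transcripts. SETDB1, the histone methyltransferase recruited with TRIM28, had r = 0.179 (adjusted p = 0.576), CBX3 had -0.103, DNMT3A had 0.100 and CBX5 had 0.0990. Of the imprinted genes, PHLDA2 had 0.258 (adjusted p = 0.248), SGCE 0.212, COPG2 0.183 and MEG3 -0.176. None of 18 measured transposase-derived and SCAN zinc finger genes, of 57 listed, passed with PGBD1 in limma, with 6 at an unadjusted p under 0.05, beside 13.9% of all transcripts. Of these 18, 13 (72.2%) had a positive r, beside 53.5% of all transcripts, with ZNF397 at 0.359 (adjusted p = 0.0634), ZSCAN31 at 0.329, ZKSCAN5 at 0.203 and TIGD2 at 0.202.

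Of the marker lists, endothelium alone held markers that passed. With HIST1H2AC these were 2 of 5, near the share of 34.6% over all transcripts, so that count is no result about the list. Of 8 measured markers of the cortex, 7 of the medulla and 7 of leukocytes, 0 passed with any member in limma, with at most 2 of a list at an unadjusted p under 0.05. Of all transcripts, from 0.0546% for PGBD1 to 34.6% for HIST1H2AC passed, and 7.21% for ALDH5A1 to 45.9% for HIST1H2AC had such an unadjusted p. The mean of each list had r between -0.151 and 0.126. The medulla list, which ranged most widely between cows, had r = -0.151 with ZFP57 and between -0.0250 and 0.0625 with the other members. Of the 5 endothelial markers, KDR (r = -0.305, adjusted p = 0.00574) and EMCN, a surface sialomucin (r = -0.241, adjusted p = 0.0280), passed with HIST1H2AC, beside 34.6% of all transcripts. The mean of the 5 had r = -0.265. With the first principal component in the fit KDR and EMCN were lost (adjusted p = 0.0946 and 0.509). PECAM1 and CDH5, adhesion molecules of endothelial junctions, passed instead, each with an adjusted p of 0.0354 and r of -0.266 and -0.267. In that fit 12.0% of all transcripts were called. These 4 markers were named after their values were seen. With ZFP57 the mean of the 5 had r = 0.313. KDR passed with ZFP57 in 4 of 7 other settings, among them that with the component (adjusted p = 0.0113). These values are about as large as the weaker correlations between members, and their part in the results was not tested. The lists for erythroid cells, adipocytes and proliferating cells matched 0 transcripts.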

How the data were processed

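Total RNA of adrenal cortex, dissected from the medulla, was hybridised with 1 array per cow. The authors deposited log2 signals, made with RMA in Affymetrix Expression Console, which corrects the background, normalizes the arrays by quantiles and summarises probes, and kept transcripts detected above background. Tests were two-sided. Left out were 2 empty columns. Transcripts were named from the platform annotation where it gives 1 symbol (8863 transcripts; 377 have several and 1746 none), and 98.0% of these matched RefSeq, from which names and gene order were taken. Here, limma 3.58.1 in R 4.3.3 was fitted with 25 year-season classes and age (119 residual degrees of freedom), or with season, year and age and the class as a random block (statmod 1.5.0, block correlation -0.0154). Slopes on a member used the first model. P-values were adjusted by Benjamini-Hochberg over all transcripts at 0.05. Components were chosen by BIC in mclust 6.1.1 (at most 3, equal variance). Permutation correlations used Python 3.11.15 with numpy 2.4.6. Sire and dam terms were not fitted. Replicates are cows, and same-family cows are not independent.

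The members, gene lists, tests and alternatives were chosen with earlier results of these data known. The text names the members, for each the 4 largest called correlations of either sign on chromosome 23 and on other chromosomes among transcripts with 1 symbol (the cluster with the highest mean where a symbol has several), the 2 nearest genes on either side and up to 4 genes per list, and says where another was chosen after its values were seen. The fits were tested on simulated data. The alternatives were no age term, the first principal component as a term, a mean signal of at least 6, ranks, additive terms, no block, each year left out, the 2 farthest cows left out, the array least like the others left out, and the other members as terms.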

Additional observations from a re-analysis of the deposited data

Results flagged for a closer look

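Within single classes of 4 to 10 cows, 9 of the 95 groups of values tested held a cow whose gap to its nearest neighbour was large against the range of the class (Dixon's criterion at 95%), and chance flags about 1 in 20 groups. For ALDH5A1, the lowest cow of autumn2010 had 7.95 beside 8.84 for the next of 6 cows, the lowest of winter2010/2011 had 8.01 beside 8.69 of 7 cows, and the highest of spring2006 had 8.88 beside 8.18 of 4 cows. For HIST1H2AC, the lowest cow of summer2011 had 6.53 beside 7.41 (6 cows) and the lowest of winter2008/2009 had 5.53 beside 6.93 (8 cows). For TMEM14C, the highest cow of autumn2004 had 12.63 beside 12.29 (4 cows) and the lowest of spring2011 had 11.96 beside 12.30 (7 cows). For ZFP57, the lowest cow of summer2005, which is summer replicate 17, had 5.79 beside 6.98 (4 cows) and the lowest of summer2010 had 6.01 beside 6.49 (8 cows).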

How the results depend on the processing

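With the first principal component in the fit, limma called 5743 transcripts for the classes, 121 for any season, 100 for summer minus winter and 657 for age, against 1273, 0, 0 and 0. That component was taken from residuals of class and age, so it is uncorrelated with both by construction. It removes residual variance and leaves the age slopes as they were, 0.0509 for PGBD1 in both fits. The higher counts are therefore no separate evidence of class or age effects. Transcripts that followed ALDH5A1 numbered 21 with that component, 20 with additive terms and 1 with the other members as terms, against 10. For HIST1H2AC they numbered 1318 with the component and 2504 without the 2 farthest cows, against 3804, and for PGBD1 809 with the other members, against 6. For TMEM14C they numbered 181 on ranks, 139 without the 2 farthest cows and 57 with the other members, against 279. For ZFP57 they numbered 81 with the component, 6 on ranks, 70 with additive terms, 6 without the 2 farthest cows, 4 without the array of summer replicate 17 and 151 with the other members, against 13. The Pearson correlation of ALDH5A1 with HIST1H2AC no longer passed in the low component of ALDH5A1 (r = 0.338), though the rank correlation did (rho = 0.387). The correlation of ALDH5A1 with PGBD1 no longer passed in the high component (0.0287). ALDH5A1 and TMEM14C had -0.0865 in the low and 0.0481 in the high component of ALDH5A1, and -0.0820 and -0.136 in those of TMEM14C. ALDH5A1 and ZFP57 had -0.153 as deposited, -0.167 without that array, and 0.125 and -0.0368 in the low and high components of ALDH5A1. HIST1H2AC and TMEM14C had 0.0537 and -0.00279 in the low and high components of TMEM14C. The components hold fewer cows over narrower ranges, and other causes were not tested. Year slopes without 1 year each ran from 0.0825 to 0.118 for HIST1H2AC, 0.0285 to 0.0358 for TMEM14C and -0.0720 to -0.0473 for ZFP57. Of the other values recomputed for all comparisons, 127 stayed on their side of the threshold or within 1.5 times the count. No paired analysis was possible because the labels give the cows of different seasons no shared numbers. Cows of a family, arrays of a year and near-identical genes limit every value above.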
